A study of Cricetulus griseus with 6 samples.

Results

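Genes of purine metabolism were followed in CHO-T cells after silencing of *Xbp1*. They are 6 that encode the enzymes of de novo purine synthesis up to IMP (*Ppat*, *Gart*, *Pfas*, *Paics*, *Adsl* and *Atic*), *Impdh2* and *Gmps* of the branch from IMP to GMP, *Hprt1* of purine salvage, and *Xdh*, whose enzyme forms urate. The members were chosen by gene symbol, and all 10 were found among the 27873 entries of the expression tables, each on a single row. The rule itself uses no measured value, but the genes were proposed with earlier results of these data known. *Xdh* is also one of the interferon-regulated genes that the study plotted from these same samples, so its direction here is not independent evidence.

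Purine nucleotides are built on a ribose phosphate donor, PRPP, in a chain of reactions that ends in IMP, the common precursor of AMP and GMP. *Ppat* encodes the amidotransferase of the committed first step, which is inhibited by the purine nucleotides the pathway makes, and *Impdh2* the rate-limiting enzyme on the way from IMP to GMP. Salvage enzymes such as HPRT rebuild nucleotides from free bases, and hypoxanthine that is not salvaged is oxidised by xanthine dehydrogenase, the product of *Xdh*, to xanthine and then urate.

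CHO-T cells are a line of Chinese hamster ovary (CHO) cells that were infected with a retrovirus carrying mouse T-cadherin (*Cdh13*) cDNA and selected with puromycin, so both groups carry the transgene. The cells were harvested 48 h after transfection with negative control siRNA (3 libraries) or *Xbp1* siRNA (3 libraries). *Xbp1* encodes a transcription factor of the unfolded protein response. Stranded mRNA libraries were sequenced, and expression is given in FPKM, fragments per length of exon scaled to the mapped fragments of the library, a relative level that allows genes to be compared per length. The study's methods describe its results in general as coming from independent biological experiments, without a statement for the RNA-Seq libraries in particular. The p-values of single genes set each difference against a spread between these samples that was estimated partly from all genes tested. All values come from bulk RNA of 1 stable line, in which fewer cells expressing a gene and less RNA per cell cannot be told apart. The line was kept in Ham's F-12 medium with serum, and the standard formula of that medium includes hypoxanthine, a substrate of HPRT.

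*Xbp1* itself fell by 93.0% in the *Xbp1* siRNA libraries. The control libraries summed to between 646651 and 666267 FPKM and the *Xbp1* siRNA libraries, without overlap, to between 593487 and 600986 FPKM. Their relative depth, read from the steps between low FPKM values, lay between 94.0% and 116% of that of control replicate 1. Of the mesenchymal markers examined, *Vim*, *S100a6* and *Lgals1* fell, *Fn1* rose and *Col1a1* was listed at 0, and the summed level of the 5 markers was 2686 to 2906 FPKM in controls and 1459 to 1528 FPKM after *Xbp1* siRNA. The granulosa markers summed to 4.39 to 6.35 FPKM and 5.12 to 7.25 FPKM (3 of 5 found, *Fshr* at 0), so that markers of this ovarian cell type were low or absent. Of the leukocyte markers (4 of 5 found) *Ptprc*, *Adgre1* and *Cd3e* were listed at 0, and their sum of 5.18 to 6.15 FPKM in controls and 6.99 to 8.80 FPKM after *Xbp1* siRNA was that of *Cd68*, which rose. The part of these shifts in the results was not tested.

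Expression was compared as log2(FPKM + 0.1) with limma, a linear model fitted across the 14361 genes with a mean of at least 0.1 FPKM. In what follows a gene rose or fell when its adjusted p (Benjamini-Hochberg, over all those genes) was under 0.05, and it was past both limits when its log2 fold change was also at least 1 in size. All 10 genes passed the filter. *Xdh*, *Hprt1* and *Atic* rose, *Impdh2*, *Ppat* and *Pfas* fell, and *Gart*, *Paics*, *Adsl* and *Gmps* did not pass the test. These 6 of 10 stand against 40.4% of all genes tested, of which 20.2% rose and 20.2% fell. Among the 7458 genes with a mean of at least 10 FPKM, the range of every member but *Xdh*, the share that passed was 54.3% (24.1% rose and 30.2% fell), so that the number of changed members by itself sets them little apart. Only *Xdh* was past both limits, against 5.19% of all genes in either direction and 2.69% upward, and no member was past them downward, against 2.5%. The median log2 fold change of the 10 genes was −0.04, beside 0.01 for all genes tested. In 6 of the 10 the 3 libraries of one group did not overlap those of the other, against 51.8% of all genes, and these were the same 6 that passed the test.

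**Figure D1:**
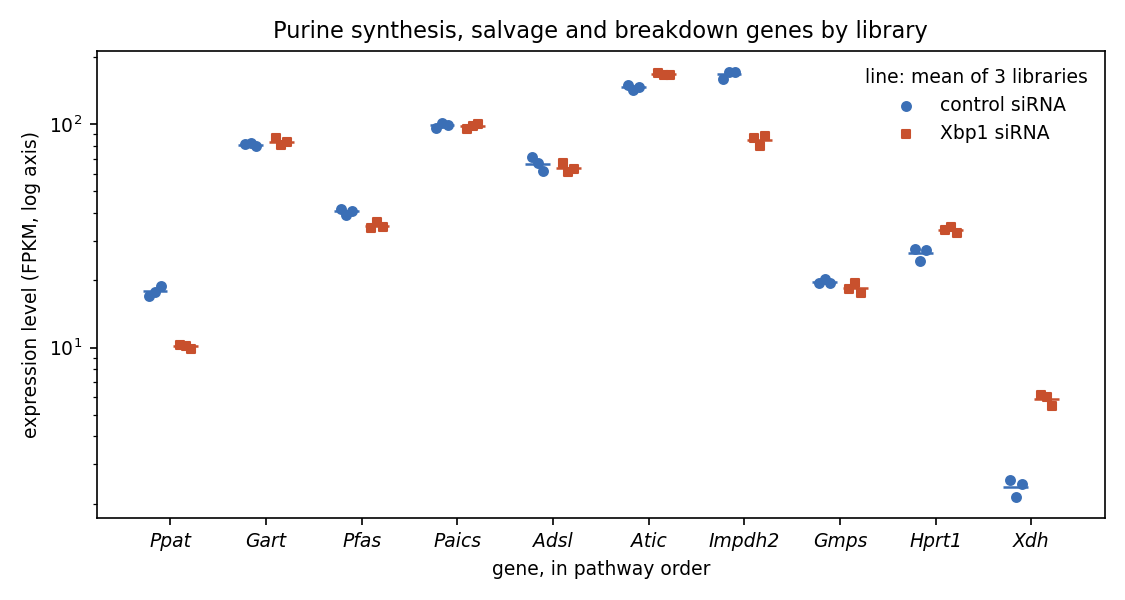
Expression level of the 10 genes in FPKM on a log axis, in the order of the pathway, with 1 point per library (3 control siRNA, 3 *Xbp1* siRNA) and a line at each group's mean. *Impdh2* went from 167 to 85.0 FPKM and *Ppat* from 17.9 to 10.1 FPKM, while *Xdh*, the lowest gene of both groups, went from 2.38 to 5.87 FPKM.

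The mRNA for the first enzyme of the pathway was lower after *Xbp1* silencing. *Ppat* had 17.1, 17.8 and 18.9 FPKM in the control libraries and 10.3, 10.2 and 9.85 FPKM in the *Xbp1* siRNA libraries. The lowest control library was well above the highest *Xbp1* siRNA library, and the means were 17.9 ± 0.898 FPKM (SD, n = 3) and 10.1 ± 0.240 FPKM (SD, n = 3), so that *Ppat* fell by 43.5%. The log2 fold change of *Ppat* was −0.82 (standard error, SE, 0.061, limma adjusted p = 5.59e-05), short of the size limit in every alternative tried.

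The PRPP synthetases, which supply the substrate of this step, did not share that fall. *Prps1*, the more abundant form, had 109 ± 5.31 FPKM (SD, n = 3) in controls and 117 ± 1.67 FPKM (SD, n = 3) after *Xbp1* siRNA, with an adjusted p of 0.0955 from limma that passed the limit in 2 of 14 alternatives, with quantile normalization and without control replicate 2 (adjusted p = 0.0382). *Prps2* rose by 15.7%, with a log2 fold change of 0.21 (adjusted p = 0.0157), which was lost without *Xbp1* siRNA replicate 2 (adjusted p = 0.0520). *Prpsap2*, which encodes a synthetase-associated protein, fell by 23.9%, a call lost in 6 of 14 alternatives, and *Prpsap1* did not pass the test (log2 fold change −0.13, adjusted p = 0.117).

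In the middle of the pathway the changes were small and of mixed sign. *Gart* encodes a trifunctional enzyme of the early steps and had 81.4, 82.0 and 79.9 FPKM in the control libraries and 86.4, 80.4 and 83.0 FPKM in the *Xbp1* siRNA libraries. The groups overlapped, and the log2 fold change of *Gart* was 0.04 with a 95% interval from −0.05 to 0.13. *Paics*, whose bifunctional product carries out a carboxylation and the step that follows it, had 95.8, 102 and 99.1 FPKM against 95.2, 98.4 and 99.8 FPKM. Its groups overlapped as well, with a log2 fold change of −0.02 (95% interval −0.10 to 0.07) whose sign changed in 3 alternatives. *Adsl* encodes adenylosuccinate lyase, an enzyme that acts both in this chain and on the way from IMP to AMP. It had 71.6, 66.8 and 61.8 FPKM in controls and 66.8, 61.2 and 62.8 FPKM after *Xbp1* siRNA, again with overlap, and a log2 fold change of −0.07 (95% interval −0.21 to 0.08). None of these intervals reaches a change as large as that of *Ppat*.

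*Pfas*, which encodes a glutamine-using synthase that acts between steps of the *Gart* enzyme, fell slightly. It had 41.9, 39.1 and 41.0 FPKM in the control libraries and 34.4, 36.6 and 34.6 FPKM in the *Xbp1* siRNA libraries. The groups did not overlap, and the means of 40.7 ± 1.42 and 35.2 ± 1.21 FPKM (SD, n = 3 each) show that it fell by 13.5% (log2 fold change −0.21, standard error 0.046, limma adjusted p = 0.00932). *Atic*, whose product closes the ring and releases IMP, moved the other way. It had 150 FPKM in control replicate 1, 142 FPKM in replicate 2 and 147 FPKM in replicate 3, against 170, 167 and 166 FPKM after *Xbp1* siRNA. Every *Xbp1* siRNA library lay above every control library, with a rise of 14.7% (log2 fold change 0.20, standard error 0.032, limma adjusted p = 0.00221).

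The levels of *Ppat*, which fell, and *Paics*, which did not pass the test, can be set side by side within each library. *Ppat* and *Paics* are listed on the same chromosome in the RefSeq table, with 1 further entry between them. The level of *Ppat* was 18.1 ± 0.815% of that of *Paics* in controls and 10.4 ± 0.479% after *Xbp1* siRNA (SD, n = 3 each). The libraries did not overlap, which in an exact two-sided permutation test of 3 against 3 gives p = 0.10, the smallest this design allows. This ratio and those for *Impdh1*, *Gmpr* and *Ampd2* given further on were chosen after the values had been seen. Each restates the changes of its genes, so its p is not further evidence.

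**Figure D2:**
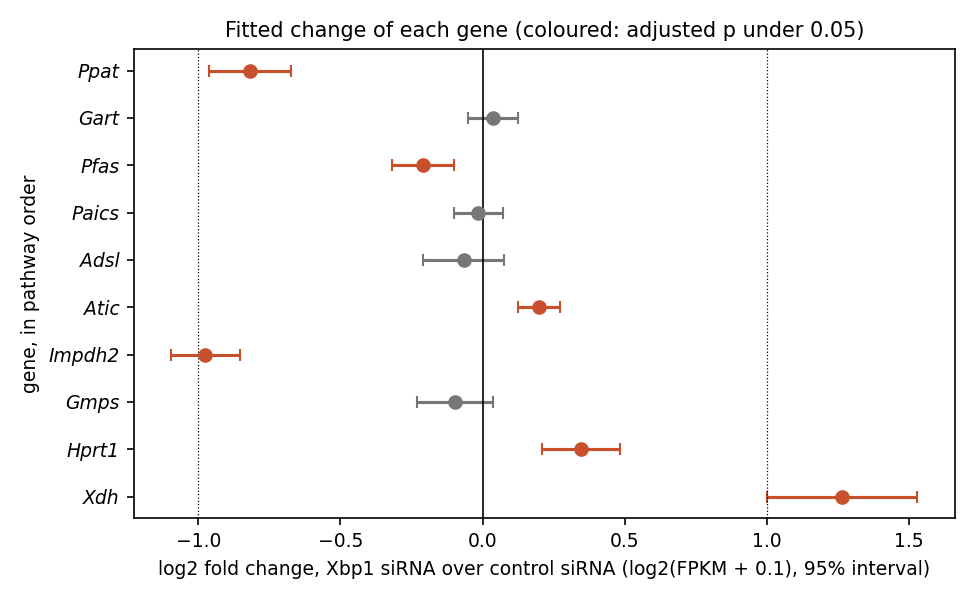
Log2 fold change of each of the 10 genes, *Xbp1* siRNA over control siRNA on the log2(FPKM + 0.1) scale, with its 95% interval from limma, and dotted lines at −1 and 1. The intervals of *Gart*, *Paics*, *Adsl* and *Gmps* (grey) include 0, those of *Ppat* and *Impdh2* lie well below it, and that of *Xdh* runs from 1.00 to 1.53.

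At the branch to GMP, *Impdh2* had the greatest fall of the 10 genes. Its level was 159, 171 and 171 FPKM in the control libraries and 86.7, 79.6 and 88.7 FPKM in the *Xbp1* siRNA libraries. The 2 groups were far apart, at 167 ± 6.85 and 85.0 ± 4.79 FPKM (SD, n = 3 each), and the gene fell by 49.1%. The change came to −0.97 on the log2 scale (SE 0.051, limma adjusted p = 1.18e-05), lower than that of all but 4.37% of the genes tested. *Impdh2* thus stood just inside the size limit of 1, and it passed that limit without control replicate 1 and without *Xbp1* siRNA replicate 3, at −1.01 in each case. FPKM values of this gene could be turned into whole reads, of which there were 2146, 2173 and 2254 in controls and 1198, 1053 and 1389 after *Xbp1* siRNA, so that counting error was at most 3.08% per library.

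*Gmps*, which encodes the synthetase that finishes GMP, did not follow. It had 19.4, 20.2 and 19.5 FPKM in controls and 18.3, 19.5 and 17.5 FPKM after *Xbp1* siRNA. The groups overlapped, and the log2 fold change of −0.10 had a 95% interval from −0.23 to 0.04 (limma adjusted p = 0.22).

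Other genes at the IMP branch point also differed between the conditions. *Impdh1*, the second IMP dehydrogenase gene, had 37.6 ± 4.27 FPKM in controls and 44.6 ± 1.92 FPKM after *Xbp1* siRNA (SD, n = 3 each), a rise (log2 fold change 0.25, limma adjusted p = 0.0407) that was lost in 7 of 14 alternatives. As the 2 genes are similar in sequence, reads shared between them may have been assigned to either, which was not tested. The level of *Impdh2* was 449 ± 65.1% of that of *Impdh1* in controls and 191 ± 10.9% after *Xbp1* siRNA, without overlap (exact two-sided permutation p = 0.10, the smallest possible). Since both genes changed without overlap and in opposite directions, this ratio had to separate. On the AMP side, *Adss2*, which encodes the main adenylosuccinate synthetase, fell by 27.1%, from 51.2 to 37.4 FPKM (log2 fold change −0.45, adjusted p = 3.85e-04).

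GMP reductase, the product of *Gmpr*, runs opposite to this branch and turns GMP back into IMP. *Gmpr* had 1.75, 2.74 and 2.34 FPKM in controls and 5.38, 4.12 and 5.46 FPKM after *Xbp1* siRNA, which corresponds to 19, 28 and 25 reads against 60, 44 and 69 reads. It rose past both limits (log2 fold change 1.11, standard error 0.192, limma adjusted p = 0.00297), though not without control replicate 1 (0.94) or with a pseudocount of 1 (0.87). The second reductase gene, *Gmpr2*, was more abundant at 31.6 ± 1.58 FPKM in controls and 29.5 ± 2.37 FPKM after *Xbp1* siRNA (SD, n = 3 each), with overlapping libraries and a log2 fold change of −0.10 (adjusted p = 0.27). The level of *Gmpr* was 1.36 ± 0.250% of that of *Impdh2* in controls and 5.85 ± 0.580% after *Xbp1* siRNA, a 4.31-fold difference without overlap (exact permutation p = 0.10). That separation follows from the opposite changes of the genes.

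**Figure D3:**
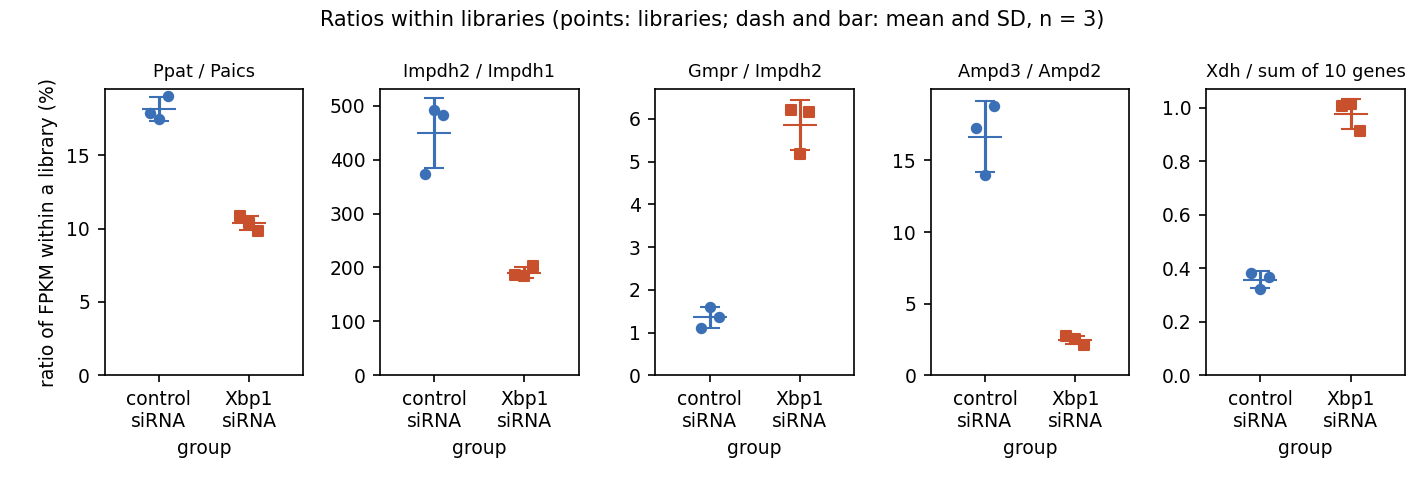
Ratios of FPKM between genes within each library, in percent, with 1 point per library and the mean and SD of each group (n = 3). The groups are apart in all 5 ratios: *Ppat* to *Paics*, *Impdh2* to *Impdh1* and *Ampd3* to *Ampd2* were lower after *Xbp1* siRNA, and *Gmpr* to *Impdh2* and *Xdh* to the sum of all 10 genes were higher. Each separation follows from the changes of the genes involved and is not further evidence.

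In purine salvage, *Hprt1* rose by 27.0%. It encodes hypoxanthine-guanine phosphoribosyltransferase, which makes IMP from hypoxanthine and GMP from guanine with PRPP. *Hprt1* had 27.6, 24.4 and 27.5 FPKM in the control libraries and 33.7, 34.6 and 32.7 FPKM in the *Xbp1* siRNA libraries. All 3 *Xbp1* siRNA libraries were above all 3 controls, at 33.7 ± 0.914 against 26.5 ± 1.79 FPKM (SD, n = 3 each), and the log2 fold change was 0.35 (SE 0.059, limma adjusted p = 0.00283). It stood on 252 to 303 reads in controls and 372 to 417 reads after *Xbp1* siRNA, the fewest of the members whose reads could be recovered, with a counting error of up to 6.30%.

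The other salvage genes did not all move with it. *Aprt*, which salvages adenine, was far more abundant than *Hprt1* at 404 ± 13.7 FPKM in controls and 435 ± 21.9 FPKM after *Xbp1* siRNA (SD, n = 3 each), with overlapping libraries (log2 fold change 0.10, limma adjusted p = 0.104, passing with quantile normalization and without *Xbp1* siRNA replicate 2, at 0.0496). *Adk*, the adenosine kinase gene, did not pass the test (log2 fold change −0.15, adjusted p = 0.07) except without control replicate 1 (adjusted p = 0.0199). *Dck*, the deoxycytidine kinase gene, rose with a log2 fold change of 0.26 (adjusted p = 0.0483), which was lost in 10 of 14 alternatives. The adenylate kinase gene *Ak3* fell by 36.1% (log2 fold change −0.65, adjusted p = 2.29e-04). Of the 12 tested genes in the list of further branch, salvage and kinase enzymes, 2 rose, 3 fell and 7 did not pass the test, with a median log2 fold change of −0.12.

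At the end of purine breakdown, *Xdh* was the member that changed most. Its level was 2.55, 2.15 and 2.45 FPKM in the control libraries and 6.11, 6.02 and 5.47 FPKM in the *Xbp1* siRNA libraries. The lowest *Xbp1* siRNA library was above every control library by more than the spread of either group, and the means were 2.38 ± 0.206 and 5.87 ± 0.345 FPKM (SD, n = 3 each), a 2.46-fold rise. The log2 fold change of *Xdh* was 1.27 (SE 0.113, limma adjusted p = 1.25e-04, 95% interval 1.00 to 1.53), and 97.3% of the genes tested had a lower one. It stayed past both limits in all 14 alternatives, between 1.02 with a pseudocount of 1 and 1.31. Whole reads could not be recovered for *Xdh*, so its counting error is unknown. In relation to the other members, *Xdh* made up 0.357 ± 0.0313% of the summed level of the 10 genes in controls and 0.977 ± 0.0570% after *Xbp1* siRNA, without overlap (exact permutation p = 0.10, the smallest possible). This separation follows from the rise of *Xdh* and the lower sum of the 10 genes, and is not further evidence.

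The genes that lead from nucleotides toward *Xdh* were of mixed sign. Of 14 tested in this list of 18, 5 rose, 4 fell and 5 did not pass the test, beside 20.2% rising and 20.2% falling among all genes, and the median log2 fold change was 0.12, beside 0.01 for all genes. *Ampd3*, one of the AMP deaminase genes that make IMP from AMP, had 6.13, 4.73 and 6.49 FPKM in controls and 1.39, 1.18 and 1.00 FPKM after *Xbp1* siRNA. It fell by 79.4% (log2 fold change −2.19, standard error 0.176, limma adjusted p = 7.51e-05), past both limits in all 14 alternatives. Whole reads could not be recovered for *Ampd3*, so its counting error is unknown. The more abundant relative of *Ampd3*, *Ampd2*, rose by 39.2%, from 34.7 ± 0.799 to 48.3 ± 2.29 FPKM (SD, n = 3 each, log2 fold change 0.48, adjusted p = 2.09e-04). *Ampd3* was thereby 16.7 ± 2.47% of *Ampd2* in controls and 2.46 ± 0.299% after *Xbp1* siRNA (exact permutation p = 0.10), a separation that follows from their opposite changes.

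Further along the same route, *Pnp*, which encodes the phosphorylase that frees hypoxanthine and guanine, fell by 26.8% (log2 fold change −0.45, limma adjusted p = 4.54e-04). *Ada*, the adenosine deaminase gene, did not pass the test (0.21, adjusted p = 0.0802) except in 3 of 14 alternatives, among them the replicate block (adjusted p = 0.0284) and the fit without control replicate 1 (adjusted p = 0.0314), whereas *Adal*, which encodes an adenosine deaminase-like protein acting on methylated AMP, fell from 13.7 ± 0.753 to 6.76 ± 0.330 FPKM (SD, n = 3 each). The log2 fold change of *Adal* was −1.01 (adjusted p = 5.24e-05) and fell short of the size limit in 3 of 14 alternatives, without control replicate 2 (−0.97), without *Xbp1* siRNA replicate 2 (−0.97) and with a pseudocount of 1 (−0.92). *Itpa*, whose product clears inosine triphosphate, fell by 48.7%, from 76.4 ± 2.15 to 39.2 ± 0.804 FPKM (log2 fold change −0.96, adjusted p = 4.21e-06). The nucleotidase genes *Nt5c3b* (log2 fold change 0.45, adjusted p = 0.00743) and *Nt5c* (0.41, adjusted p = 0.0187, lost in 4 of 14 alternatives) and the dNTPase gene *Samhd1* (0.34, adjusted p = 0.00442) rose. *Gda*, the guanine deaminase gene that supplies xanthine from guanine, had at most 4 reads in any library.

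Genes for the cofactor of XDH and for urate handling were looked at beside it. XDH needs the molybdenum cofactor. Of 10 listed genes of that route and of other molybdoenzymes, 4 were found and tested, and *Gphn* and *Mocos* were not among them. Of these 4, 1 fell and 3 did not pass the test. The one that fell was *Mocs3*, from 10.6 ± 0.453 to 7.96 ± 0.314 FPKM (SD, n = 3 each; log2 fold change −0.41, limma adjusted p = 0.00284). Of 6 urate genes listed 4 were found, and none of these passed the filter. The transporters *Abcg2* and *Slc22a12* were listed at 0 in all 6 libraries, *Slc2a9* had 1 to 2 reads per library in controls and 3 to 4 reads after *Xbp1* siRNA, and *Urad*, of urate breakdown, had 0 reads in controls and 0 to 3 reads after *Xbp1* siRNA. These urate genes were not tested, and so few reads do not allow a direction to be given.

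The genes whose profile over the 6 libraries was closest to that of *Xdh*, by Euclidean distance among 9409 genes with a mean of at least 1 FPKM, were *G6pc3* (distance 0.15), *Btbd19* (0.161), an entry whose symbol is stored as the date form Sep-03 (0.170), *Vill* (0.171) and *Ap1g2* (0.176). *G6pc3* encodes a widely expressed glucose-6-phosphatase and *Ap1g2* a subunit of a clathrin adaptor. Their log2 fold changes lay close to that of *Xdh*, between 1.17 for *Vill* and 1.33 for Sep-03. With 2 conditions, this likeness is mostly that of the change itself.

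Ordered by level per length, the 10 genes ran in controls from *Impdh2* (167 FPKM) through *Atic* (146), *Paics* (98.9), *Gart* (81.1), *Adsl* (66.7), *Pfas* (40.7), *Hprt1* (26.5), *Gmps* (19.7) and *Ppat* (17.9) to *Xdh* (2.38 FPKM). No neighbours in this order overlapped in their control libraries. After *Xbp1* siRNA *Atic* was highest (168 FPKM), followed by *Paics* (97.8), while *Impdh2* (85.0) stood level with *Gart* (83.3), their libraries overlapping, and *Hprt1* (33.7) with *Pfas* (35.2). *Xdh* was lowest in both conditions. The summed level of the 10 genes was 666 to 668 FPKM in the control libraries and 593 to 608 FPKM in the *Xbp1* siRNA libraries. As a share of all FPKM of the library this came to between 0.0999% and 0.103%, with the conditions overlapping.

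Routes that feed or run beside purine synthesis were examined in the same way. The folate route supplies the formyl groups that the enzymes encoded by *Gart* and *Atic* use. Of its 13 tested genes, 4 rose, 3 fell and 6 did not pass the test (median log2 fold change −0.03). *Mthfd1l*, which releases formate in mitochondria, fell by 21.8% (log2 fold change −0.36, limma adjusted p = 1.13e-04), and the mitochondrial folate carrier gene *Slc25a32* fell by 41.0% (−0.76, adjusted p = 7.77e-04, on the one of its 2 rows that passed the filter). *Ggh*, of folate polyglutamate breakdown, rose by 72.0% (0.78, adjusted p = 0.0071). *Shmt2* and *Mthfd2*, which generate mitochondrial one-carbon units, had log2 fold changes of −0.03 each, with the sign reversed under quantile normalization, and did not pass the test.

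Among 10 genes of pyrimidine synthesis and salvage, 1 rose, 2 fell and 7 did not pass the test (median −0.06). *Cad*, which encodes the enzyme of the first steps of that pathway, had 35.9 ± 0.403 FPKM in controls and 35.7 ± 2.03 FPKM after *Xbp1* siRNA (SD, n = 3 each; log2 fold change −0.01, limma adjusted p = 0.926, with a sign that changed in 3 alternatives). *Ctps1*, the main CTP synthetase gene, fell (−0.32, adjusted p = 6.63e-04), *Uck2*, a uridine-cytidine kinase gene, fell (−0.23, adjusted p = 0.00159), and the thymidylate synthase gene *Tyms* rose (0.43, adjusted p = 2.21e-04). The 3 ribonucleotide reductase genes did not pass the test. Of 4 tested nucleoside and base transporters only *Slc29a3* did, rising from 7.97 to 11.3 FPKM (0.50, adjusted p = 0.00202).

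Of the transcription factors known to act on purine synthesis genes, most did not pass the test. *Myc* had 341 ± 8.97 FPKM in controls and 352 ± 8.79 FPKM after *Xbp1* siRNA (SD, n = 3 each; log2 fold change 0.05, limma adjusted p = 0.301) and *Atf4* 616 to 656 FPKM and 606 to 620 FPKM (−0.06, adjusted p = 0.205, with the sign reversed under quantile normalization), both with overlapping libraries. Under quantile normalization both passed the test upward, at 0.17 for *Myc* and 0.23 for *Atf4*. Of the 4 tested in this list, only *Max*, the dimer partner of MYC, rose (0.25, adjusted p = 0.00663), and *Mycn* was listed at 0, as were *Nt5c1a*, *Aldh1l1* and *Slc28a2* of the lists above. Over the 10 lists together, 82 of 95 genes were found and 68 tested, of which 15 rose, 14 fell and 39 did not pass the test, near the 40.4% of all genes that passed it, with *Gmpr* past both limits upward and *Ampd3* and *Adal* downward. Their median log2 fold change was −0.03.

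**Figure D4:**
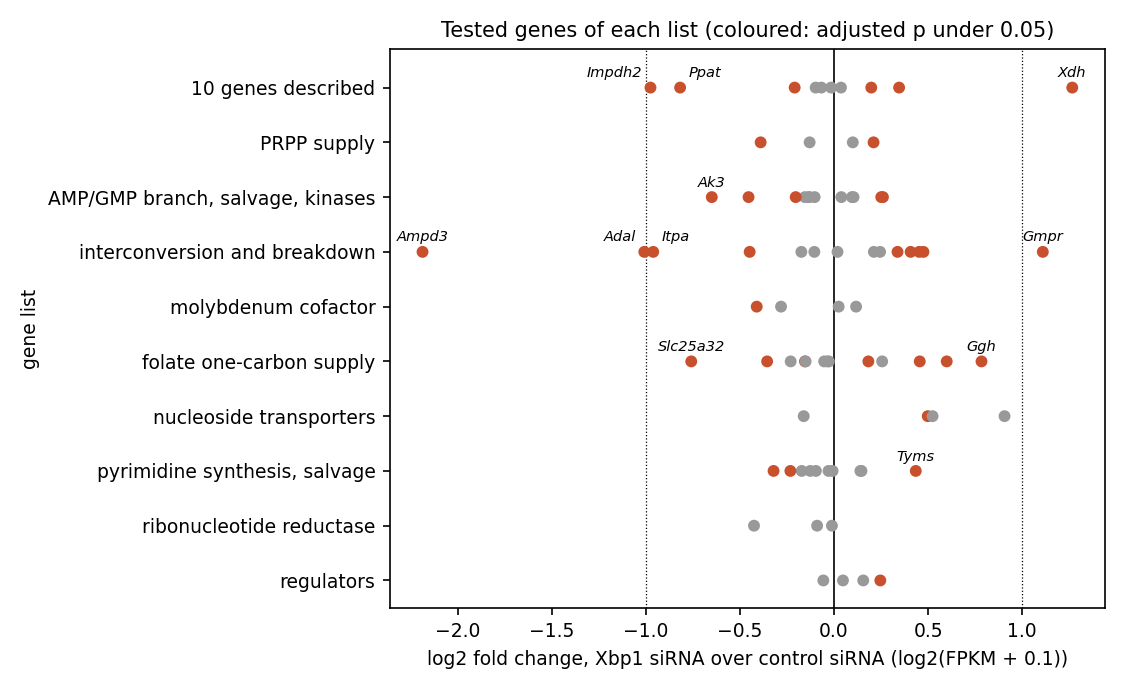
Log2 fold change of every tested gene of the 10 genes described and of 9 gene lists of related routes, with genes at an adjusted p under 0.05 coloured and dotted lines at −1 and 1. Each list holds genes on both sides of 0 except that of ribonucleotide reductase, and only *Xdh*, *Gmpr*, *Ampd3* and *Adal* lie past a dotted line.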

How the data were processed

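RNA of 3 control siRNA and 3 *Xbp1* siRNA samples, grouped by sample title, was analysed. The submitters' processing notes name HISAT2 2.1.0 and Cuffdiff 2.2.1, and the genome build and annotation are not given in the sources used here. The values that the authors deposited are FPKM, 1 file per library. FPKM are not counts, so the DESeq2 analysis of raw counts named in the study's methods was not repeated. The test was limma 3.58.1 (lmFit and eBayes with trend, R 4.3.3) on log2(FPKM + 0.1) for genes at a mean FPKM of at least 0.1, with Benjamini-Hochberg adjustment over all 14361 genes. In simulated data with 200 changed genes, the procedure recovered 38.2% of log2 changes of 0.5 and 79.5% of those of 1.5. Far more genes passed in the real data, so that setting differs. A gene that did not pass the test may still have changed. Fold changes on this scale understate those of weakly expressed genes. The adjusted p limit of 0.05 and the log2 limit of 1 follow the study. Reads were recovered for a gene where its 6 values were whole multiples of a common step (tolerance 0.01 reads, widening with their number). This succeeded for 6 of the 10 members, and such counts cover counting error only. For the other 4 members the depth is unknown, as it is for some list genes, among them *Ampd3*, *Adal* and *Ggh*. Other steps used Python 3.11.15, pandas 2.3.3 and scipy 1.17.1.

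The members and gene lists were chosen with earlier results of these data known. Genes named are the members, list genes past both limits, up to 2 further genes of a list with the largest change in each direction at an adjusted p under 0.05, genes listed at 0, the paralogs *Impdh1*, *Prps1* and *Prps2*, and the 5 genes most like *Xdh*. The other list genes named were chosen after their values were seen. Some list genes are not reported here by name. Other settings tried were a pseudocount of 1 or 0.01, a filter at 1 FPKM or none, median-ratio and quantile scaling, eBayes without trend, the replicate number as a block, and leaving out each library. All 10 members were matched by symbol in a RefSeq gene table (assembly CriGri-PICRH-1.0), used for names and neighbours only. A motif search of promoters was intended and not run, since sequences were not used here.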

Additional observations from a re-analysis of the deposited data

How the results depend on the processing

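Of 140 values of the 10 members under 14 alternatives, 137 kept their direction and their side of the adjusted p threshold. The 3 that changed sign were those of *Paics*, whose log2 fold change of −0.02 became 0.0562 with quantile normalization, 0.0052 without control replicate 2 and 0.0040 without *Xbp1* siRNA replicate 1. Its range with any 1 library left out was −0.0377 to 0.0052. Quantile normalization also turned the sign of *Mthfd2* (0.0813), *Shmt2* (0.13), *Cad* (0.0431) and *Atf4* (0.23), and *Cad* ranged from −0.0323 to 0.0406 with 1 library left out. Under that normalization *Shmt2*, *Atf4*, *Myc* (0.17), *Aprt* (0.27), *Ada* (0.24) and *Prps1* (0.17), which had not passed the test, passed it upward. The causes were not tested. The number of members past both limits downward was 0, and 0 to 1 when libraries were left out, the 1 being *Impdh2*. With the geometric mean of the 9 other members as denominator, the difference in the share of *Xdh* was 7.67 percentage points in place of 0.619, which follows from the smaller denominator. Samples with the same replicate number did not deviate together (r of −0.029, −0.027 and −0.012). Whether they were prepared in pairs is not stated by the sample titles, and these correlations cannot show it. With the replicate block the log2 fold change of *Xdh* stayed at 1.27 (adjusted p = 0.00126 from limma), and no member's call changed. The median log2 fold change of all genes lay between 0.002 and 0.016 in the alternatives. Precision is limited by 3 libraries per group, whose exact tests cannot go below 0.10, and by the unknown depth behind *Xdh*.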
